A study of Homo sapiens with 4 samples.

Results

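The glycolysis and hypoxia genes described here are 40 genes for glucose and lactate transport, the steps of glycolysis, its regulatory kinases, oxygen sensing and the targets of the hypoxia-inducible factors (HIFs). They were chosen by gene name from a deposited table of 37810 names, and all 40 names were present. MCF10A (immortalized mammary epithelium that forms no tumours) and MDA-MB-231 (a metastatic breast cancer line) were each transfected with control siRNA or with siRNA against the forkhead transcription factor FOXF2, at 20 nM. RNA was taken after 48 h and read on 1 Illumina expression BeadChip array per line and siRNA, 4 arrays in all. The series asks which genes FOXF2 regulates in normal-like and in metastatic breast epithelial cells. The labels name no separate cultures, and with so few arrays the precision is limited throughout. The main limma fit, with line and siRNA as terms, leaves over only the difference between the lines' siRNA responses. Its p-values measure this spread, pooled over genes, and not a spread between repeat cultures.

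Glycolysis converts glucose to pyruvate, and lactate dehydrogenase can turn pyruvate into lactate, which leaves the cell through monocarboxylate transporters. When oxygen is scarce, prolyl hydroxylases of the EGLN family no longer mark HIF alpha subunits for destruction, and these pair with ARNT on hypoxia response elements to raise transcription of glucose transporters, glycolytic enzymes and pyruvate dehydrogenase kinases. In breast tumours the pathway is known for a high use of glucose even when oxygen is present. HIF alpha subunits are controlled largely at the protein level, which RNA arrays do not show.

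Values are intensities as deposited, 1 per gene name and array, in arbitrary units that still hold a background of about 102 on each array. A value was taken as above background over a limit of 121 to 122, the upper 1% of that background. Of the 40 genes, 37 were above it on all 4 arrays, and the other 3 were ENO2, ARNT and EGLN3. Log2 differences are on a background-corrected scale (limma's normexp, with an offset of 16), so for dim genes they are larger than the ratio of the intensities. FOXF2 itself went from 241 to 143 when its siRNA replaced the control in MCF10A, and from 259 to 123 in MDA-MB-231. The average over both lines fell by 1.85 in log2 units (SE 0.33, adjusted p = 3.3e-05 in limma). Of 8 basal epithelial markers in the table, all 8 were above background on both MCF10A arrays and 2 to 3 on the MDA-MB-231 arrays, whereas of 7 mesenchymal markers 5 to 6 were above it in MCF10A and 7 in MDA-MB-231. LOX and SPARC, which stand on that mesenchymal list, were brighter in MCF10A (251 and 248 against 139 and 163 for LOX). Of 12 markers of endothelium, fibroblasts and blood cells, 2 to 5 were above background in MCF10A and 2 to 3 in MDA-MB-231. The blood cell marker CD14 was bright in MCF10A, with 535 and 692 against 128 and 115 in MDA-MB-231. Of 5 luminal markers, 3 were above background on each array. KRT8, on that luminal list, was brighter in MDA-MB-231 (772 and 961 against 334 and 417).

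**Figure D1:**
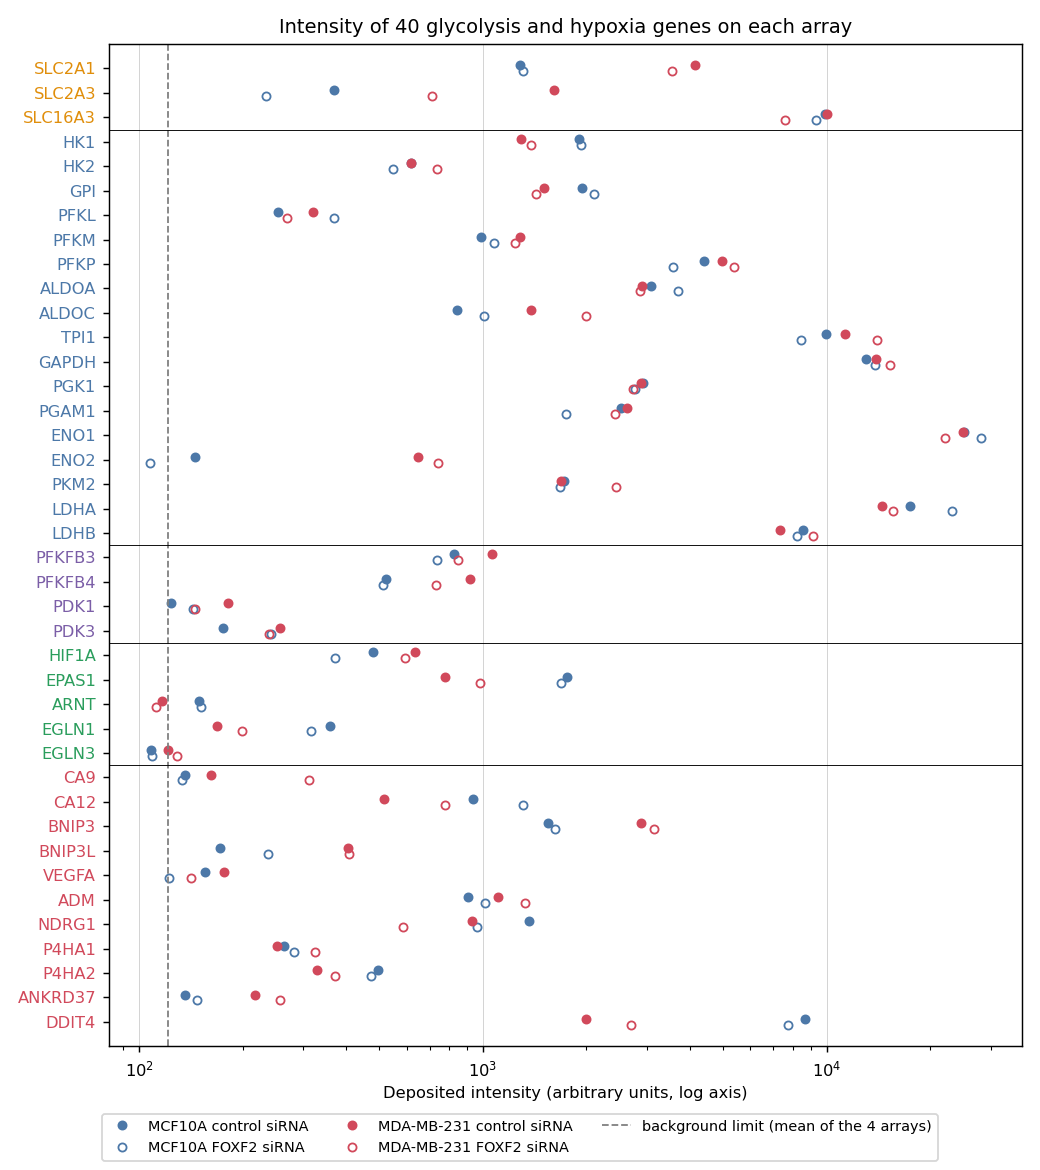
Deposited intensity (arbitrary units, log axis) of each of the 40 genes, with 1 point per array: filled for control siRNA, open for FOXF2 siRNA, blue for MCF10A and red for MDA-MB-231. The dashed line is the mean background limit. SLC2A3 and ENO2 lie apart between the lines, GAPDH and PGK1 lie together, and ARNT and EGLN3 lie at or under the limit in 1 line each.

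To show the sequences at which HIFs are known to act, RefSeq promoter windows (build GRCh38.p14, from 250 bases before an annotated start to 50 after it) were read for the 36 of the 40 genes that matched by current symbol. The first window listed was used for each gene. For some genes, among them GAPDH and GPI, it lay downstream of the gene's first base. SLC2A3, VEGFA, BNIP3L and NDRG1 had no match. The core of the hypoxia response element was searched as ACGTG and as GCGTG on both strands, so that the palindrome CACGTG counts once on each. At least 1 core was present in 26 of 36 windows (72.2%), against 48.4% of 35116 windows of the same length, and ACGTG alone in 41.7% against 21.4%. The 35116 windows were not limited to 1 per gene. Several of the genes were listed as known HIF targets, so a high share is no independent observation. A forkhead core, TAAACA, was found in 0 of the 36 windows and in 12.3% of all windows. The windows shown belong to the gene with the largest difference with FOXF2 siRNA within a line (CA9), to those with the largest differences between lines in each direction (ENO2 and DDIT4), and to the main glucose transporter gene (SLC2A1). They are written 5′ to 3′ in the direction of the gene, with hypoxia response cores in capitals, and a match is a description of the letters only.
CA9: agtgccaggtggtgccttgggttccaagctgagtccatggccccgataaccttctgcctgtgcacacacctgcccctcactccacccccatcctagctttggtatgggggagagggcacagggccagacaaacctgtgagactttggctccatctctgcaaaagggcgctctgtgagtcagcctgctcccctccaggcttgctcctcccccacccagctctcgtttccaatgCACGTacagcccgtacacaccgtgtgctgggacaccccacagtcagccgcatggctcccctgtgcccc
ENO2: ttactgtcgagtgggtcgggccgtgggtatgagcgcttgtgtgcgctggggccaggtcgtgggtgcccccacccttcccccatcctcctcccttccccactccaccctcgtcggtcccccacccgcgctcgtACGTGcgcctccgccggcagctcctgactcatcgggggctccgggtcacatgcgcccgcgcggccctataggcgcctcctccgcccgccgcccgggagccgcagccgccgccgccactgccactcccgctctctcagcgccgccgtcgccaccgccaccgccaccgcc
DDIT4: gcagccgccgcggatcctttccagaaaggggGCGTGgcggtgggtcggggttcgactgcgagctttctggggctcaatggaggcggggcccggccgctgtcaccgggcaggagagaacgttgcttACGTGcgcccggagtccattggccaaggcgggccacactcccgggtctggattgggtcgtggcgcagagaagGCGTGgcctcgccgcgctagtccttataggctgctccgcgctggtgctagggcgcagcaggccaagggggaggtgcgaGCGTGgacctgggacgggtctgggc
SLC2A1: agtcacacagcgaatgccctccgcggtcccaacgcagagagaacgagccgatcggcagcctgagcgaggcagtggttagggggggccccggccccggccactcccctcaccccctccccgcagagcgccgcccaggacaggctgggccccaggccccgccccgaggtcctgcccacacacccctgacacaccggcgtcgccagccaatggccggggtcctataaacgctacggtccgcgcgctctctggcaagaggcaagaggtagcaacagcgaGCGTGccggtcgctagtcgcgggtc
The window of CA9 is chr9:35673678-35673977 on the plus strand, with 1 core that begins 18 bases before the start, on the opposite strand. That of ENO2 is chr12:6914330-6914629 (plus), with 1 core that begins 118 bases before the start. DDIT4 has 4 cores in chr10:72273674-72273973 (plus), beginning 219, 125 and 53 bases before and 25 bases after the start. SLC2A1 has 1 core in chr1:42958819-42959118 (minus), 25 bases after the start.

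To find which of these genes responded to FOXF2 siRNA in both lines, the 4 arrays were fitted in 1 limma model with line and siRNA as terms, over the 20747 genes that any array showed above background. SLC2A3, which encodes the high-affinity glucose transporter GLUT3, was the 1 gene of the 40 that passed. MCF10A gave 369.8 under control siRNA against 233 under FOXF2 siRNA, and MDA-MB-231 gave 1609 against 709. Both FOXF2 siRNA arrays were lower than the control array of the same line, while both MDA-MB-231 arrays were brighter than both MCF10A arrays. SLC2A3 fell by 1.12 in log2 units (SE 0.22, adjusted p = 0.0008 in limma). It was lower in 2 of 2 lines, with a log2 difference of -0.95 in the MCF10A pair of arrays and -1.29 in the MDA-MB-231 pair. Its close neighbour and near copy SLC2A14, looked up after these values were seen, is listed under its own name at 96.5 and 105 on the MCF10A arrays and at 124 and 126 on the MDA-MB-231 arrays. Whether the SLC2A3 probe also reads SLC2A14 was not tested.

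The limma call for SLC2A3 rested on a spread shared by genes of similar brightness, because only 1 residual degree of freedom was left and limma estimated infinite prior degrees of freedom. It was lost when the shared spread did not follow brightness (adjusted p = 0.899) and with the gene's own spread (adjusted p = 0.938), and over all 9 alternatives the adjusted p ranged from 0.00059 to 0.938.

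Of all tested genes, 0.0868% fell and 0.13% rose at an adjusted p under 0.05, against 1 of the 40 genes that fell and 0 that rose in limma. At an unadjusted p under 0.05, 3 of the 40 were higher and 3 lower with FOXF2 siRNA, against 2.96% and 2.48% of all tested genes. The 3 lower ones were SLC2A3, VEGFA and NDRG1, and the 3 higher ones ALDOC, CA9 and CA12. The median difference of the 40 was 0.07, against -0.00 over all genes. In the 37 genes measured on all 4 arrays, signs were split: 10 were higher with FOXF2 siRNA in both lines, 9 lower in both and 18 opposite, a share with equal sign of 51.4% against 53% of all 9962 such genes.

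Within a line, with 1 array per siRNA, differences have no replicate check and were described by size. Of the 39 measured genes, 0 were counted as 2-fold higher or lower in MCF10A, where 1.7% and 1.14% of all measured genes were. For ENO2, at background on the FOXF2 siRNA array, only a bound of at least 1.66-fold lower is known, so a 2-fold difference is possible there. In MDA-MB-231, 1 of 39 (CA9) was at least 2-fold higher and 1 (SLC2A3) at least 2-fold lower, against 1.2% and 1.38% of all genes. At 1.5-fold, 4 were higher (PFKL, PDK1, PDK3 and BNIP3L) and 3 lower (SLC2A3, ENO2 and VEGFA) in MCF10A, against 8.04% and 6.82% of all genes. In MDA-MB-231, 2 were higher (CA9 and CA12) and 4 lower (SLC2A3, PDK1, VEGFA and NDRG1), against 7.3% and 7.46%. The members had a median difference of -0.04 within MCF10A and 0.10 within MDA-MB-231, where those of all genes were -0.01 and -0.00. The robust SD of the differences over all genes above background on both arrays was 0.34 within MCF10A and 0.37 within MDA-MB-231. For genes of a mean log2 value under 8 it was 0.42 and 0.43.

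**Figure D2:**
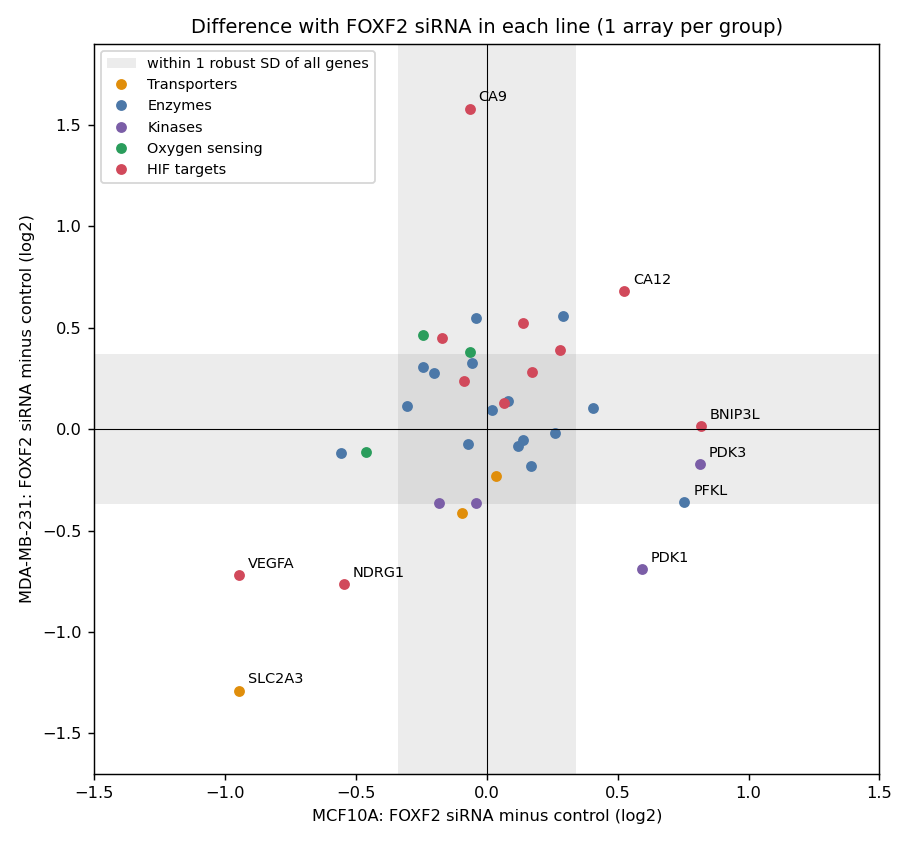
Log2 difference of FOXF2 siRNA minus control siRNA in MCF10A (x axis) and MDA-MB-231 (y axis) for the 37 genes above background on all 4 arrays, 1 point per gene and 1 array per group; grey bands mark 1 robust SD of all genes. SLC2A3, VEGFA and NDRG1 lie at the lower left, CA12 at the upper right, CA9 is apart on the y axis and PDK1 lies at the lower right.

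The other transporters differed less with FOXF2 siRNA. SLC2A1, encoding GLUT1, the widespread basal glucose transporter, had intensities of 1281 and 1311 in MCF10A and of 4154 and 3549 in MDA-MB-231 (control and FOXF2 siRNA), log2 differences of 0.04 and -0.23. SLC16A3 encodes MCT4, which exports lactate, and its differences were -0.09 in MCF10A and -0.41 in MDA-MB-231 (10039.9 to 7570.1). For SLC2A1 and SLC16A3 the effect averaged over the lines was -0.10 (SE 0.19) and -0.25 (SE 0.18), and the adjusted p was 0.961 for each in limma. Neither gene was separated from the spread.

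Of the 17 enzyme genes of glycolysis and lactate formation, 0 were called in limma for the siRNA, and their differences lay between -0.36 and 0.56 in MDA-MB-231. In MCF10A they lay between -0.56 and 0.75, apart from ENO2, for which there is only a bound. PFKL, the liver-type subunit of phosphofructokinase, had 254 and 369 in MCF10A and 321 and 269 in MDA-MB-231. Its difference was 0.75 in the first line and -0.36 in the second, so the MCF10A arrays enclose the MDA-MB-231 arrays. The paralogous subunits PFKM and PFKP had 0.14 and -0.30 in MCF10A and -0.06 and 0.12 in MDA-MB-231. ENO2, the neuronal enolase, was above background with control siRNA (145) and at background with FOXF2 siRNA (108) in MCF10A, a decrease of at least 1.66-fold on the background-corrected scale, and had 648 and 742 in MDA-MB-231. LDHA, which converts pyruvate to lactate, had 17485 and 23159 in MCF10A and 14505 and 15576 in MDA-MB-231, differences of 0.41 and 0.10. GAPDH, the glyceraldehyde phosphate dehydrogenase often used as a reference gene, stayed between 13062 and 15315 on the 4 arrays, with differences of 0.08 and 0.14.

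The remaining enzymes were measured on all 4 arrays and stayed within 1.5-fold in each line. PGAM1, a phosphoglycerate mutase, had the lowest of their MCF10A values (2521 to 1741, -0.56), and ALDOC, an aldolase of brain, the highest of their MDA-MB-231 values (1382 to 1996, 0.56). ALDOC was also higher in MCF10A (842 to 1011, 0.29), and averaged 0.42 over the lines (SE 0.20, adjusted p = 0.799 in limma). PKM2, the table's name for PKM (pyruvate kinase M), had 1720.3 and 1673 in MCF10A and 1692 and 2436 in MDA-MB-231. The name alone does not show which isoform its 3 probes read. ENO1, the widespread enolase, had 22063 to 28123, where the highest values of the arrays were 28123 to 32091, so that signal near the top of the range limits its precision.

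Of the 4 kinases that direct pyruvate and fructose phosphate, PDK1 and PDK3 had values of unlike sign in the 2 lines, and PFKFB3 and PFKFB4 were lower in both. PDK1, a pyruvate dehydrogenase kinase that keeps pyruvate out of the mitochondrial cycle, had 124 and 143 in MCF10A and 182 and 146 in MDA-MB-231. The control MCF10A value was close to the background limit. Its differences were 0.59 and -0.69, or 0.21 and -0.32 without background correction. PDK3, another kinase of the same family, had 175 and 243 in MCF10A and 257 and 238 in MDA-MB-231, differences of 0.81 and -0.17. PFKFB3 and PFKFB4, which make a sugar phosphate that activates phosphofructokinase, had -0.18 and -0.04 in MCF10A and -0.36 and -0.37 in MDA-MB-231. None of the 4 kinases was called in limma for the siRNA, where the unadjusted p was above 0.05 for each, and the difference between the lines' responses was not tested, since it leaves no residual degree of freedom.

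Among the HIF subunits and oxygen sensors, all differences with FOXF2 siRNA were under 1.5-fold. HIF1A, the oxygen-regulated subunit found in most cells, had 481 and 373 in MCF10A and 633 and 592 in MDA-MB-231, differences of -0.46 and -0.11. EPAS1, encoding HIF-2 alpha, had 1759 and 1685 in MCF10A and 776 and 983 in MDA-MB-231, differences of -0.06 and 0.38. EGLN1, the main prolyl hydroxylase that marks HIF alpha, had 359 and 317, and 168 and 199, differences of -0.24 and 0.47. ARNT, the shared partner subunit, was at 149.6 and 151 in MCF10A (0.03) and at background in MDA-MB-231 (117 and 112). EGLN3, a hydroxylase gene that is itself induced by HIF, was at background in MCF10A (108 and 109) and barely above it in MDA-MB-231 (122 and 129, 0.25). Averaged over the lines, the 5 genes had siRNA effects of -0.29 to 0.16.

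Of the 11 HIF target genes, 9 were higher with FOXF2 siRNA in MDA-MB-231 and 2 lower, with a median difference of 0.28, while in MCF10A 6 were higher and 5 lower, with a median of 0.06. Of all 16793 genes measured in MDA-MB-231, 8353 were higher and 8440 lower, and of 30 further HIF targets measured there 16 were higher and 14 lower, with a median of 0.08. None of the 11 was called in limma for the siRNA. NDRG1, a stress-responsive gene induced by hypoxia and linked to differentiation, had 1367 and 964 in MCF10A and 932 and 585 in MDA-MB-231. It was lower with FOXF2 siRNA in 2 of 2 lines, with differences of -0.55 and -0.76, and averaged -0.65 (SE 0.20, adjusted p = 0.217 in limma). VEGFA, the main angiogenic growth factor, was dim, with 156 and 122 in MCF10A and 177 and 141 in MDA-MB-231. The lowest of these, 122, lay just over the limit. Its differences of -0.95 and -0.72 averaged -0.83 (SE 0.38, adjusted p = 0.775 in limma) and were -0.35 and -0.32 without background correction.

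The 2 membrane carbonic anhydrases, which hydrate carbon dioxide at the cell surface and so help to regulate pH, were higher in MDA-MB-231 with FOXF2 siRNA. CA12 had 935 and 1307 in MCF10A and 517 and 778 in MDA-MB-231. It was higher in 2 of 2 lines, by 0.53 and 0.68, and averaged 0.60 (SE 0.21, adjusted p = 0.333 in limma). CA9, whose promoter is printed above, had 136 and 134 in MCF10A and 162 and 312 in MDA-MB-231. The difference was -0.07 for the MCF10A pair and 1.58 for the MDA-MB-231 pair, or 0.95 for the latter without background correction, and the mean over the lines was 0.76 (SE 0.34, adjusted p = 0.733 in limma). Of the 4 arrays, the MDA-MB-231 array with FOXF2 siRNA stood apart for CA9.

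BNIP3L, which takes mitochondria to autophagy, had 172 and 238 in MCF10A and 404 and 408 in MDA-MB-231, differences of 0.82 and 0.02. Its relative BNIP3 had differences of 0.06 and 0.13. The other targets stayed within 1.5-fold in each line: ADM, the vasodilator adrenomedullin, had 0.17 and 0.28, ANKRD37 0.28 and 0.39, and the collagen prolyl hydroxylase subunits P4HA1 and P4HA2 0.14 and 0.52, and -0.09 and 0.24 (MCF10A first). DDIT4, an inhibitor of mTOR complex signalling that is induced by stress, had -0.17 in MCF10A and 0.45 in MDA-MB-231.

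**Figure D3:**
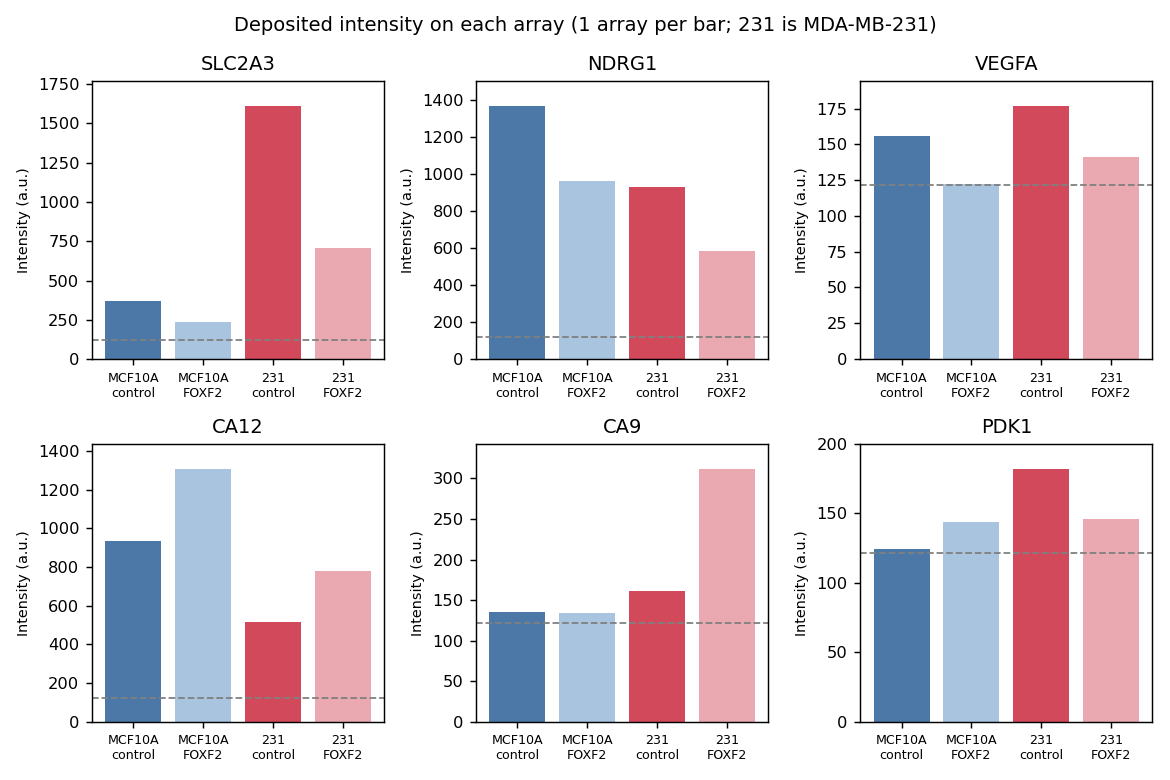
Deposited intensity (arbitrary units, axis from 0) of 6 genes, 1 bar per array, with no error since each bar is 1 array; dark bars are control siRNA and light bars FOXF2 siRNA, and the dashed line is the mean background limit. SLC2A3, NDRG1 and VEGFA are lower with FOXF2 siRNA in both lines, CA12 is higher in both, CA9 is higher in MDA-MB-231, and PDK1 goes up in MCF10A and down in MDA-MB-231.

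To find how the metastatic line differs from the non-tumorigenic line in these genes, the same limma model was read for its line term. Each line has 2 arrays, 1 per siRNA, which are not replicates, and only 1 residual degree of freedom is left. The SEs and p-values therefore rest on the spread shared by genes of similar brightness. A gene was called where its adjusted p was under 0.05 and the lines differed at least 2-fold. Of the 40 genes, 6 were higher in MDA-MB-231 and 3 lower, against 5.75% and 5.95% of all tested genes, and against 7.26% and 7.29% of genes above background on all 4 arrays. Both MDA-MB-231 arrays lay above both MCF10A arrays for 19 of the 40 genes and below them for 12, against 27.7% and 25% of all tested genes and 34.4% and 29.6% of genes above background on all 4 arrays. The median difference was 0.27 for the 40 genes and 0.03 for all genes. With each gene's own spread in limma, none of the 9 genes passed, and the lowest adjusted p among them was 0.47.

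Both glucose transporters were higher in MDA-MB-231. SLC2A1, at 4154 and 3549 there against 1281 and 1311 in MCF10A, was higher by 1.63 log2 units (SE 0.19, adjusted p = 1.69e-16 in limma), and the groups did not overlap. SLC2A3 was higher by 2.26 (SE 0.22, adjusted p = 1.14e-22 in limma), with 1609 and 709 against 369.8 and 233. Without the MDA-MB-231 control array, and with line alone in the fit, SLC2A3 differed by 1.61 and missed the threshold (adjusted p = 0.0902 in limma). SLC16A3 differed by -0.14 (SE 0.18), and its arrays overlapped between the lines.

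Of the enzymes, ENO2 passed. Its intensities of 648 and 742 in MDA-MB-231 stood against 145 and 108 in MCF10A, the second of which is at background, and the difference was 3.99 (SE 0.27, adjusted p = 1.57e-45 in limma), 3.26 between the control siRNA arrays alone and 2.47 without background correction. For ENO1 the difference was -0.18 (SE 0.18). The aldolases also had unlike values: ALDOC was higher by 0.91 (SE 0.20, adjusted p = 4.53e-05 in limma), under the size asked for, and ALDOA differed by -0.23 (SE 0.19). HK1, encoding the hexokinase of most tissues, was 1.47-fold lower in MDA-MB-231 (-0.55, adjusted p = 0.0245 in limma) and HK2, the inducible hexokinase, differed by 0.25 (adjusted p = 0.566). TPI1 was higher by 0.47 (adjusted p = 0.0494 in limma), under 2-fold, and GPI differed by -0.49 (adjusted p = 0.0525 in limma). PKM2, PGAM1, PFKM and PFKP were higher by 0.27 to 0.39 and did not pass. GAPDH, PGK1, LDHB, PFKL, ENO1 and ALDOA differed by 0.23 or less in either direction. LDHA differed by -0.42 (adjusted p = 0.0876 in limma), with 14505 and 15576 against 17485 and 23159, and its arrays did not overlap between the lines.

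Of the 5 oxygen-sensing and HIF genes, 2 were called lower in MDA-MB-231 and 0 higher, against 5.95% and 5.75% of all tested genes. This count was not tested against those shares. EPAS1 was lower, at -1.06 (SE 0.20, adjusted p = 1.37e-06 in limma), with 776 and 983 against 1759 and 1685. EGLN1 was lower, at -1.38 (SE 0.27, adjusted p = 6.21e-06 in limma), with 168 and 199 against 359 and 317. Neither reached 2-fold without background correction (-0.98 and -0.88), and each of the 2 calls held in 10 of 14 alternatives. With line alone in the limma fit, leaving out the MDA-MB-231 control array took EPAS1 under 2-fold (-0.87) and ended the call of EGLN1 (adjusted p = 0.0902), as leaving out the MCF10A control array did for EGLN1 (adjusted p = 0.0674). ARNT was at background on both MDA-MB-231 arrays and at least 1.82-fold lower there (adjusted p = 0.0623 in limma). HIF1A was higher by 0.65 (SE 0.22, adjusted p = 0.0218 in limma), under 2-fold, with 633 and 592 against 481 and 373. Of the kinases, PFKFB4 was higher by 0.77 (adjusted p = 0.00273 in limma), also under 2-fold, and PFKFB3, PDK1 and PDK3 did not pass.

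Of the HIF targets, DDIT4 had the largest negative difference, with 1992 and 2689.9 in MDA-MB-231 against 8653 and 7701 in MCF10A, a difference of -1.86 (SE 0.18, adjusted p = 2.03e-22 in limma). BNIP3L, with 404 and 408 against 172 and 238, was higher by 1.49 (SE 0.26, adjusted p = 1.77e-07). ANKRD37, an ankyrin repeat gene induced by HIF, was higher by 1.45 (SE 0.32, adjusted p = 7.06e-05), with 217 and 257 against 136 and 147, and by 0.74 without background correction. BNIP3 was brighter on both MDA-MB-231 arrays (2892 and 3158 against 1551 and 1617) and just short of 2-fold, at 0.97 (adjusted p = 3.78e-06). CA12 and NDRG1 were lower, at -0.90 and -0.71 (adjusted p = 0.000144 and 0.00392), under 2-fold. These p-values are from limma. With line alone in the fit, leaving out either MDA-MB-231 array ended the call of BNIP3L (adjusted p = 0.117 without the control array and 0.124 without the other) and of ANKRD37 (0.113 and 0.204), and leaving out the MCF10A control array ended that of ANKRD37 (0.0746).

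CA9 was called higher in MDA-MB-231, by 1.44 (SE 0.34, adjusted p = 0.000192 in limma), and the difference was 0.74, under 2-fold, without background correction. The call held in 9 of 14 alternatives. The control siRNA arrays alone, at 162 against 136, differed by 0.62, and the FOXF2 siRNA arrays, at 312 against 134, by 2.26. Without the MDA-MB-231 array with FOXF2 siRNA, with line alone in the fit, the difference was 0.65 and the adjusted p 0.512 in limma. Without either MCF10A array it was 1.47 or 1.41, and the adjusted p 0.149 or 0.172. VEGFA, ADM, P4HA1 and P4HA2 did not pass, with differences from -0.60 to 0.50.

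**Figure D4:**
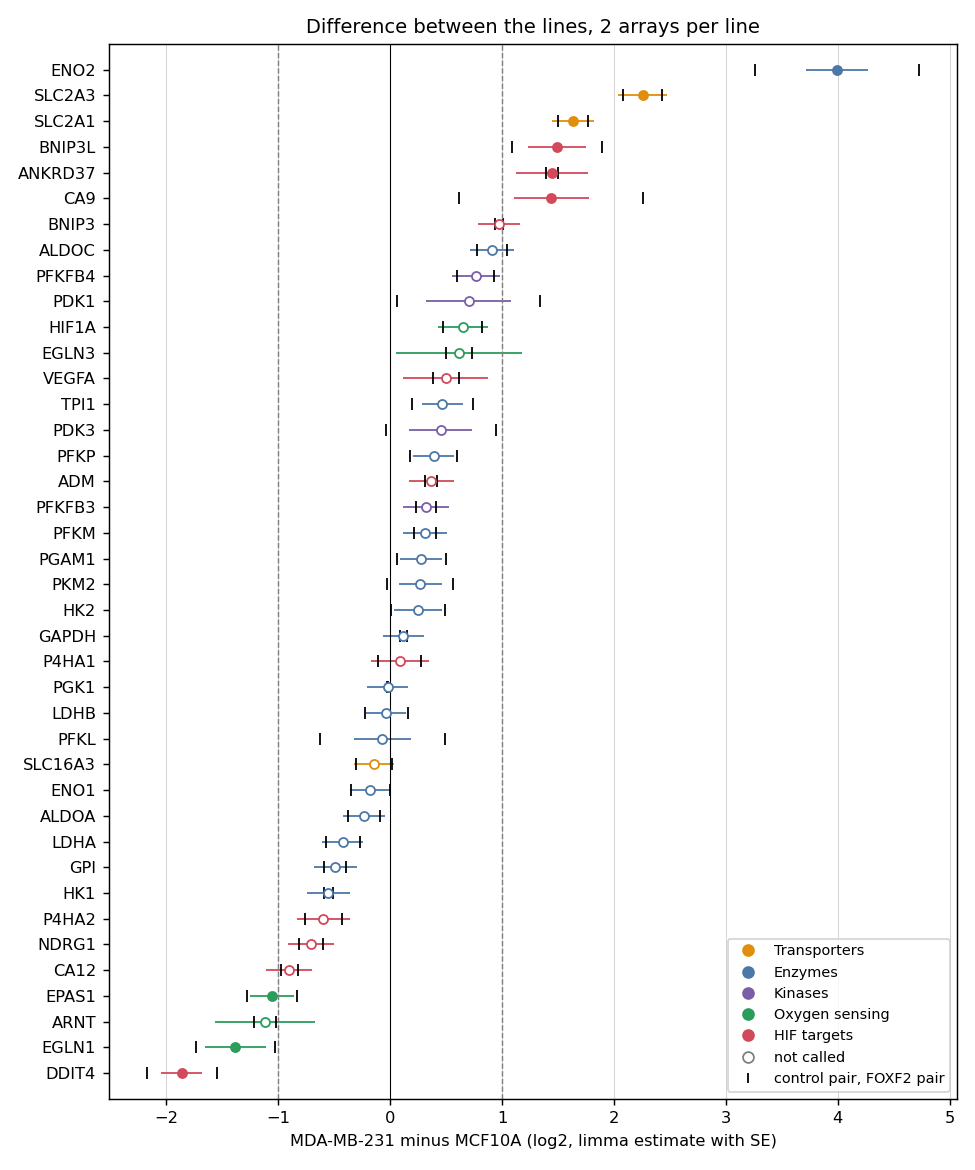
Difference between the lines (MDA-MB-231 minus MCF10A, log2) for the 40 genes in order of size: points are limma estimates with bars of 1 SE, filled where called, coloured by role, and black ticks give the control siRNA pair and the FOXF2 siRNA pair. ENO2, at 3.99, and DDIT4, at -1.86, are the ends of the range, and the 2 ticks of CA9 lie at 0.62 and 2.26. ARNT, EGLN3 and ENO2 rest in part on arrays at background.

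Other genes of the same pathways were read from 3 lists. Of 41 further genes of glycolysis and glucose supply in the table, 31 were tested, 1 rose and 0 fell with FOXF2 siRNA in limma. The gene that rose was TXNIP, whose protein restrains glucose uptake, with 698 and 1561 in MCF10A and 249 and 510.2 in MDA-MB-231, an average of 1.33 (SE 0.22, adjusted p = 5.42e-06) that was higher in 2 of 2 lines. Between the lines, 1 gene was higher in MDA-MB-231 and 2 lower, against 5.75% and 5.95% of all tested genes. ENO3, the muscle enolase, was above background on both MDA-MB-231 arrays only and at least 3.73-fold higher there (adjusted p = 4.98e-08), while TXNIP and the glycogen synthase gene GYS1 were lower, at -1.86 and -1.51 (adjusted p = 5.28e-16 and 1.22e-08).

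Of 16 further genes of oxygen sensing and HIF function, 15 were tested and 0 passed for the siRNA in limma. Between the lines, 2 were higher and 1 lower in MDA-MB-231, against 5.75% and 5.95% of all tested genes. ARNT2, a relative of ARNT, was at background in MCF10A (103 and 110.3) and had 227 and 220.0 in MDA-MB-231, at least 3.90-fold higher (adjusted p = 1.8e-09). The coactivator gene EP300 was higher by 2.43 (adjusted p = 2.91e-14), with 334 and 341 against 128 and 139 in MCF10A. CITED4, a small protein that binds the same coactivators, was lower, at -3.26 (adjusted p = 8e-31), with 142 and 132 against 626 and 518. For both genes the dimmer line lay near the background limit, where log2 differences are larger than the ratio of the intensities.

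Of 37 further HIF target names, 31 were tested, and 1 rose with FOXF2 siRNA in limma. This was HMOX1, the haem oxygenase gene, with 124 and 162 in MCF10A and 159.7 and 538 in MDA-MB-231, averaging 1.82 (SE 0.31, adjusted p = 2.14e-05). Its differences were 1.02 in MCF10A and 2.62 in MDA-MB-231, or 0.39 and 1.75 without background correction. Among those that differed at least 2-fold in a line without passing, STC1, a secreted glycoprotein, had differences of 1.19 (MCF10A) and 0.76 (MDA-MB-231), and TMEM45A had 0.66 and 1.05 in the same order. Between the lines, 8 were higher in MDA-MB-231 and 5 lower, against 5.75% and 5.95% of all tested genes. These counts were not tested against those shares. ADFP (now PLIN2), which coats lipid droplets, was at least 17.5-fold higher, with 741 and 664 against background in MCF10A (adjusted p = 2.19e-54), and ERRFI1, HMOX1 and SPAG4 were higher by 1.79 and 1.79, and at least 2.38-fold (adjusted p = 1.64e-19, 1.59e-07 and 0.000439). For HMOX1 the control siRNA arrays alone differed by 0.99, with the MCF10A value close to the background limit, and the FOXF2 siRNA arrays by 2.59. STC2 was at least 37.3-fold lower, at background in MDA-MB-231 against 1391 and 1390.1 in MCF10A (adjusted p = 4.01e-97), and the creatine transporter gene SLC6A8, the lipase inhibitor gene ANGPTL4 and GYS1, which is on 2 lists, were lower, at -2.94, -2.84 and -1.51 (adjusted p = 8.99e-23, 3.21e-31 and 1.22e-08). All p-values of the 3 lists are from the limma fit over all tested genes. The alternative settings were not run for the lists. Whether the calls of TXNIP and HMOX1 for the siRNA depend on the shared spread was not tested.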

How the data were processed

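Total RNA of 4 samples was labelled as biotinylated cRNA and read on Illumina BeadChips, per the labels' protocols. The authors deposited a linear intensity for each gene name on each array; how they corrected, normalized and summarized probes is not given in the sources used here. The 40 genes had 1 to 4 probes per name (17 had several), counted in the deposited probe list. The 8 per-sample columns of that list match no label and were not used. Background was the mode of values below 140 (kernel bandwidth 1.5) with the SD of values below it (8.13 to 8.27). Each array was corrected with normexp at these values, 16 was added, log2 was taken, and no further normalization was done. limma 3.58.1 in R 4.3.3 fitted line and siRNA over 20747 genes (lmFit, eBayes with a trend, Benjamini-Hochberg, 1 residual degree of freedom). The code was also run on simulated data with independent noise between arrays, which does not check the calls on these arrays. Where 1 group was at background, the fold is a bound, taken against the lowest above-background value. The design foresaw this intensity scale. Genes printed array by array differed 1.5-fold in a line, passed a test, or were fixed by name (HIF1A, EPAS1, ARNT, EGLN1, SLC2A1, LDHA and GAPDH); from the lists, those that were 2-fold different with the siRNA in a line or passed its test, and at most 4 per list and direction between lines. Members and lists were chosen with earlier results of these data known. One gene that this rule names from the lists is not reported here.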

Additional observations from a re-analysis of the deposited data

Results flagged for a closer look

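PDK1 was set apart because its 2 lines moved at least 1.5-fold in opposite directions with FOXF2 siRNA, by 0.59 on the log2 scale in MCF10A (124 to 143) and by -0.69 in MDA-MB-231 (182 to 146). The response in MDA-MB-231 minus that in MCF10A was -1.28. This difference was not tested, since each line has 1 array per siRNA, and the robust SD of differences over all genes of a mean log2 value under 8 was 0.42 and 0.43. Without background correction the PDK1 differences were 0.21 and -0.32, under 1.5-fold in both lines, so the flag depends on that correction. The MCF10A control value of 124 lay close to the background limit. How many of all genes meet the same rule was not counted.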

How the results depend on the processing

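Without background correction, CA9 and ANKRD37 were no longer called higher in MDA-MB-231, 1 member in place of 3 was called lower there, and 0 in place of 1 was 2-fold higher with FOXF2 siRNA in that line. With a shared spread that ignores brightness, or with the unmoderated spread of the single gene, 0 members fell with FOXF2 siRNA, and with the latter 0 were higher and 0 lower between the lines. At 1.5-fold, 4 members were higher and 3 lower in MCF10A, and 2 higher and 4 lower in MDA-MB-231. Leaving out 1 array, with line alone in the fit, gave 3 to 7 higher and 1 to 3 lower members between the lines and a median difference of 0.17 to 0.26; the 3 higher members were left without the MDA-MB-231 array with FOXF2 siRNA, and the 1 lower member without the MDA-MB-231 control array. For the siRNA effect, leaving out an array leaves no residual degree of freedom, so that the value for SLC2A3 was -0.95 or -1.29, with no test. An offset of 50, quantile normalization, a common median, limits at the upper 5% and 0.1% of the background, no filter on dim genes and line without an siRNA term kept these counts within 1.5 times. The alternatives other than leaving out an array changed the sign of 0 values of named genes. With 1 array left out, the siRNA value of the other line alone had the opposite sign to the average for PFKL, ENO2, PDK3, SLC2A1, PDK1, EPAS1, ARNT, EGLN1, CA9 and DDIT4, none of which was called for the siRNA, and the line difference of PFKL (-0.07) became 0.31 or 0.11 without a FOXF2 siRNA array. No scaling moved the median of all genes by more than 0.1. The siRNA fit already compares arrays within each line. No paired analysis was possible because the labels give no replicate numbers to use as a further block. Low signal over background limits, among others, ENO2, VEGFA, PDK1, ARNT, EGLN3, CA9 and ANKRD37.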
